A study of Mus musculus with 6 samples.

Results

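Vegfa, Ndrg1, Slc2a1 and P4ha1 are 4 genes that are known targets of the response to low oxygen and that also take part in responses to other cell stress. They were measured by RNA sequencing in mouse cells labelled as microglia, brain-resident immune cells. The 4 genes were found by symbol and are 4 of the 4656 rows of the deposited table. They were chosen because their levels were known to be higher without Nus1, so their difference between the genotypes is given below as a description, without a test.

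The 6 libraries fall into 2 groups of 3. The cKO group came from Nus1cKO mice, a conditional knockout, and the Ctrl group from Nus1fl/fl mice, which carry the floxed allele. Nus1 encodes a subunit of the enzyme that makes the lipid carrier for protein N-glycosylation. Both groups are described with the same tamoxifen treatment, 100 mg/kg into the peritoneum on each of 5 days, starting at postnatal day 28. Flow cytometry of brain tissue 30 days past the final dose yielded the microglia. A culture step in medium with serum is also described, without saying whether the sequenced cells went through it. The labels name no Cre driver, strain or sex, and do not say whether the Ctrl mice carried a Cre, so an effect of Cre and one of losing Nus1 cannot be told apart. The replicates are labelled biological but are not tied to animals, so errors measure the spread between these libraries.

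Hypoxia-inducible factors (HIF) are pairs of an oxygen-sensitive alpha subunit and the stable partner Arnt. In normal oxygen, prolyl hydroxylases of the Egln family mark the alpha subunit for degradation through Vhl. When oxygen is low the alpha subunit persists, and the pair binds the core letters ACGTG or GCGTG near target genes for blood vessel growth, glucose uptake, glycolysis and matrix synthesis. Some targets also respond to Atf4, the transcription factor of the integrated stress response, and Vegfa is a known example.

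Nus1 itself was at 14.1, 13.6 and 13.8 TPM (transcript abundance scaled for gene length and library size) in the cKO libraries, against 59.4, 60.9 and 59.2 TPM in the Ctrl libraries, as the genotype labels say. The table's reads numbered 10786150 to 10983767 per cKO library and 11002519 to 11033144 per Ctrl library. They are part of each library, because the deposited rows are those that passed a q-value of 0.05 when the authors compared the groups. Of a gene that has no row, neither level nor difference is known here. Of the labelled cell type's 13 markers, 7 had a row, all of them above 0 (Cx3cr1, Csf1r, C1qa, C1qb, C1qc, Itgam and Trem2). The 7 microglial markers had a summed level of 623 to 656 TPM in cKO libraries and 723 to 802 TPM in Ctrl libraries, but they went both ways. Itgam averaged 100.8 TPM in cKO and 61.6 TPM in Ctrl and was called higher. The other 6 were called lower, such as C1qa at 45.4 TPM in cKO and 74.3 TPM in Ctrl. In the authors' own calls 7.69% of the 13 were higher and 46.2% lower, beside 13.7% higher and 15.7% lower of all genes they tested. The calls of Csf1r and Trem2 ended with RLE, upper-quartile scaling and DESeq2, and that of Trem2 also without cKO replicate 3 (adjusted p = 0.0558) or without Ctrl replicate 1 (adjusted p = 0.0729). Those without a row included P2ry12, Tmem119, Sall1, Aif1 and Siglech.

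The sequence before the transcription start is shown for 3 of the 4 genes, because the genes were higher together and HIF cores can be looked for there. RefSeq's GRCm38.p6 table holds such windows for Vegfa, Slc2a1 and P4ha1; Ndrg1 was not matched. Each line gives the 250 bases before a start, 5′ to 3′ on the gene's strand, with every match in capitals to the HIF cores ACGTG or GCGTG, to the Atf4 and C/EBP composite TGATGNAA, or to the endoplasmic reticulum stress element, on either strand. The HIF core ACGTG is also part of the E-box CACGTG, which other factors bind. The windows are chr17:46032378-46032627 on the minus strand for Vegfa, chr4:119108495-119108744 on the plus strand for Slc2a1, and chr10:59323046-59323295 on the plus strand for P4ha1.
Vegfa: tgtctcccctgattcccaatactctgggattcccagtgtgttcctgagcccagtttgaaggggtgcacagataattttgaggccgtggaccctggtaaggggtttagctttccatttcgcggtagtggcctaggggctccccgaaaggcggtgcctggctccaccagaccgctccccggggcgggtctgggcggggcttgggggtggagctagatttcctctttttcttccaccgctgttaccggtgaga
Slc2a1: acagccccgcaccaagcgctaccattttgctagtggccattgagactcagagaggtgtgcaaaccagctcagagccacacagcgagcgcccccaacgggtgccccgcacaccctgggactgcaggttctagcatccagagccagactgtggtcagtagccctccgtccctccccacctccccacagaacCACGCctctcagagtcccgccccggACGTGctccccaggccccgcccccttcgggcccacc
P4ha1: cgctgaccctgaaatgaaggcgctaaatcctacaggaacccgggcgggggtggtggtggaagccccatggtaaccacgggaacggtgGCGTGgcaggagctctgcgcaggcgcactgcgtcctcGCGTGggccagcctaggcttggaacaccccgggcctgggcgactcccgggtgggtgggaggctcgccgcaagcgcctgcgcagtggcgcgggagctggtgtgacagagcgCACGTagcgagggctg

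The Slc2a1 window held 1 ACGTG, from 36 to 32 bases before the start, and 1 GCGTG read on the opposite strand, from 61 to 57 bases before it. The P4ha1 window held 1 ACGTG read on the opposite strand, from 16 to 12 bases before the start, and 2 GCGTG, from 163 to 159 and from 126 to 122 bases before it. The Vegfa window shown held no match to these letters. A further Vegfa window in the table, at an alternative start inside the gene, held 1 of each core. Whether any of these matches is bound was not tested. Neither the composite nor the stress element was found in any of these windows. Of all 32851 windows in the table, 16.6% held ACGTG, 28.2% GCGTG, 3.45% the composite and 0.113% the stress element. At least 1 of the HIF cores was in 38.6% of all windows, against 52.6% of the windows of genes called higher in cKO and 60.3% of those of genes called lower. GC content was 66.4% in the Slc2a1 window and 69.6% in that of P4ha1, against a median of 52.4% over all windows, and the cores contain CG.

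Vegfa encodes vascular endothelial growth factor A, the secreted ligand that drives the growth and leakiness of blood vessels. Its position is chromosome 17, minus strand, from 46327919 to 46343303 (mm39, ENSMUSG00000023951). The table adds up 11 transcripts, so its splice forms were not resolved. Its level was 39.3, 40.0 and 40.2 TPM in the cKO libraries, against 24.5, 24.4 and 23.7 TPM in the Ctrl libraries. The groups did not overlap, and the libraries of each group lay within 1 TPM of each other. Vegfa had a log2 fold change of 0.73 ± 0.04 (SE, edgeR fit over all rows), beside 0.69 in the authors' deposited table.

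Ndrg1 encodes a cytoplasmic protein induced by hypoxia and by metal chelation, which takes part in vesicle traffic and in the upkeep of myelin in peripheral nerve. Its level was 116, 107 and 108 TPM in the cKO libraries, against 58.8, 58.1 and 59.4 TPM in the Ctrl libraries. The groups did not overlap, and cKO replicate 1 stood above the other cKO libraries. At 0.93 ± 0.03 (SE), its log2 fold change was the largest of the 4, beside 0.89 in the authors' deposited table. Ndrg1 lies on chromosome 15 from 66801167 to 66841490 (mm39, ENSMUSG00000005125). The deposited table puts it on the plus strand, whereas GENCODE M21 (GRCm38) has it on the minus strand. Of 4624 rows that could be compared, 552 (11.9%) carried a strand other than GENCODE's, and 548 of them were plus in the table and minus in GENCODE. GENCODE also lists Gm17035 and Gm2895 as overlapping Ndrg1 on the opposite strand. The labels do not say whether counting used strand; if it did not, reads of these and of Ndrg1 could not be told apart.

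Slc2a1 encodes the glucose transporter GLUT1, the carrier for basal glucose uptake and, in brain endothelium, for glucose entry into the brain. It lies on chromosome 4 from 118965942 to 118995999 on the plus strand (mm39, ENSMUSG00000028645); GENCODE lists the antisense genes Gm12867 and Gm12868 across it. Its level was 177, 171 and 174 TPM in the cKO libraries, against 134, 137 and 135 TPM in the Ctrl libraries. The groups did not overlap, although the lowest cKO library was only 1.25 times the highest Ctrl library. At 0.38 ± 0.02 (SE), its log2 fold change was the smallest of the 4, beside 0.34 in the authors' deposited table.

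P4ha1 encodes a catalytic alpha subunit of collagen prolyl 4-hydroxylase, the enzyme of the endoplasmic reticulum that hydroxylates proline in collagen chains and uses oxygen to do so. It lies on chromosome 10 from 59159019 to 59209126 on the plus strand (mm39, ENSMUSG00000019916). Its level was 80.1, 81.5 and 77.9 TPM in the cKO libraries, against 56.1, 57.9 and 59.0 TPM in the Ctrl libraries. The groups did not overlap, and cKO replicate 3 was the lowest of its group. P4ha1 had a log2 fold change of 0.49 ± 0.03 (SE), beside 0.44 in the authors' deposited table.

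**Figure D1:**
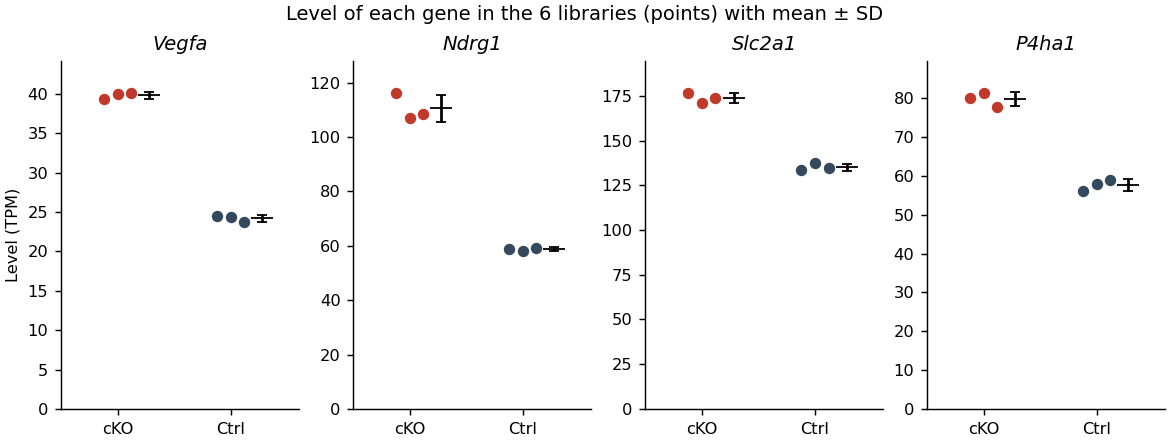
Level in TPM (vertical axes, each from 0) of Vegfa, Ndrg1, Slc2a1 and P4ha1 in the 3 cKO libraries (left in each panel) and the 3 Ctrl libraries (right), with the mean and SD as a black bar. In each panel every cKO library lies above every Ctrl library; Ndrg1 averaged 111 TPM in cKO and 58.7 TPM in Ctrl, and Slc2a1 174 TPM in cKO and 135 TPM in Ctrl.

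All 4 genes passed the threshold of an adjusted p of 0.05 in the edgeR fit, as did 96.7% of all tested rows, and of the 15835 genes in the authors' test 29.4% were called. Over all deposited rows, every cKO library was above every Ctrl library in 46.1% and below in 51.5%. Nothing is read from these counts, since both the genes and the rows were chosen on this comparison. By size, the log2 fold change of Ndrg1 was above that of 88.9% of the 2155 genes called higher, that of Vegfa above 82.6%, that of P4ha1 above 65.7% and that of Slc2a1 above 51.5%. Slc2a1 was thus near the middle of the genes called higher, whose median log2 fold change was 0.37.

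In cKO libraries the order of level, per length, was Slc2a1 (174 ± 2.84 TPM), Ndrg1 (111 ± 5.03), P4ha1 (79.8 ± 1.81) and Vegfa (39.8 ± 0.459; SD, n = 3), with no overlap between neighbours. In Ctrl libraries it was Slc2a1 (135.2 ± 1.96 TPM), Ndrg1 (58.7 ± 0.653), P4ha1 (57.6 ± 1.46) and Vegfa (24.2 ± 0.408; SD, n = 3), and there Ndrg1 and P4ha1 overlapped. The difference in level between the groups was 51.8 TPM for Ndrg1, 38.6 TPM for Slc2a1, 22.2 TPM for P4ha1 and 15.6 TPM for Vegfa. The highest difference in TPM after Ndrg1 therefore belonged to Slc2a1, the gene with the smallest fold change.

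The spread of reads between libraries of a group is set here beside the SD that counting alone gives. Vegfa counts had an SD of 18.9 reads in cKO and 17.2 in Ctrl, against 36.2 and 28.2 reads expected from counting at its mean of 1307 reads in cKO and 794 in Ctrl. Ndrg1 had an SD above that of counting in cKO, at 133 reads against 56.5 from counting, whereas in Ctrl its SD was 13.7 reads against 41.1. Over all rows, the mean chi-square between 2 libraries of a group, which is 1 for counting error alone, ran from 1.38 to 2.18 in cKO pairs and from 1.31 to 1.76 in Ctrl pairs. No pair agreed within counting error over all rows. The common coefficient of variation beyond counting was 0.0164 in the edgeR fit, a small spread. Both measures rest on rows called for a difference between the groups. That choice favours genes with little spread within a group, so the spread over all genes, and the SEs, may be understated. Repeat libraries of 1 RNA pool could also differ by more than counting error, so these values cannot show that the libraries are independent. Each library was kept as a sample because it is labelled a biological replicate.

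Among other targets of HIF that had a row, more rose than fell. Of a list of 50 HIF targets, 27 had a row; 23 rose and 4 fell, and the median of their log2 fold changes was 0.36, beside -0.08 over all tested rows (edgeR quasi-likelihood test, Benjamini-Hochberg adjustment over 15835 genes). Over all tested rows 46.4% were called higher and 50.2% lower. Without Vegfa, Ndrg1, Slc2a1 and P4ha1, 23 of 46 had a row, of which 19 rose and 4 fell, with a median of 0.33. In the authors' own calls 41.3% of those 46 genes were higher and 8.70% lower, beside 13.7% higher and 15.7% lower of all genes they tested. DESeq2 split the calls over all rows differently, with 58.9% of them higher against 48.0% in the edgeR fit. Glycolysis genes, many of which HIF also induces, were counted on a separate list, where 5 rose and 5 fell. The split of 23 and 4 thus depends on how the lists were divided. The lists were drawn up with earlier results of these data known, so these counts describe the genes and do not test the list.

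The HIF targets with the smallest p, the 4 genes left aside, were Ero1a, Bnip3, Wsb1 and Pgm1. Ero1a, the oxidase that recycles protein disulfide isomerase in the endoplasmic reticulum, was at 228, 205 and 212 TPM in cKO libraries, against 127, 130 and 132 TPM in Ctrl libraries, a log2 fold change of 0.75 ± 0.03 (SE). The mitophagy receptor Bnip3 was at 253, 238 and 242 TPM in cKO, against 172, 181 and 180 TPM in Ctrl, a log2 fold change of 0.47 ± 0.03. In both, every cKO library was above every Ctrl library. The ubiquitin ligase component Wsb1 rose by 0.32 and the phosphoglucomutase Pgm1, which links glycogen to glycolysis, by 0.36.

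Further HIF targets, named after their values were seen, fall by role as follows. Ddit4, an inhibitor of the growth kinase mTORC1, had the highest log2 fold change of the list at 0.98 ± 0.09 (SE), with 18.4, 19.5 and 22.1 TPM in cKO libraries, against 9.96, 9.87 and 10.9 TPM in Ctrl libraries; it is on the Atf4 list too. The mitophagy receptor Bnip3l rose by 0.28, the glycogen synthase Gys1 by 0.36, and the histone demethylases Kdm3a and Kdm4b by 0.33 and 0.31. The circadian repressors Bhlhe40 and Bhlhe41 rose by 0.31 and 0.21. The 4 that fell were the carbonic anhydrase Car12 (-0.29), the adenylate kinase Ak4 (-0.17), the Myc antagonist Mxi1 (-0.08) and the cytokine Mif (-0.07). The calls of Mxi1 and Mif ended with RLE size factors, upper-quartile scaling and DESeq2, which leaves 2 lower, and that of Mif also on the log2 FPKM scales. The call of Mxi1 ended without cKO replicate 1 (adjusted p = 0.0713), without Ctrl replicate 2 (0.126) and without Ctrl replicate 3 (0.0618) as well. Mif was the 1 of these 4 whose groups overlapped. Car9, Adm, Ankrd37, Pdk1 and Egln1, also HIF targets, were among the 23 without a row.

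**Figure D2:**
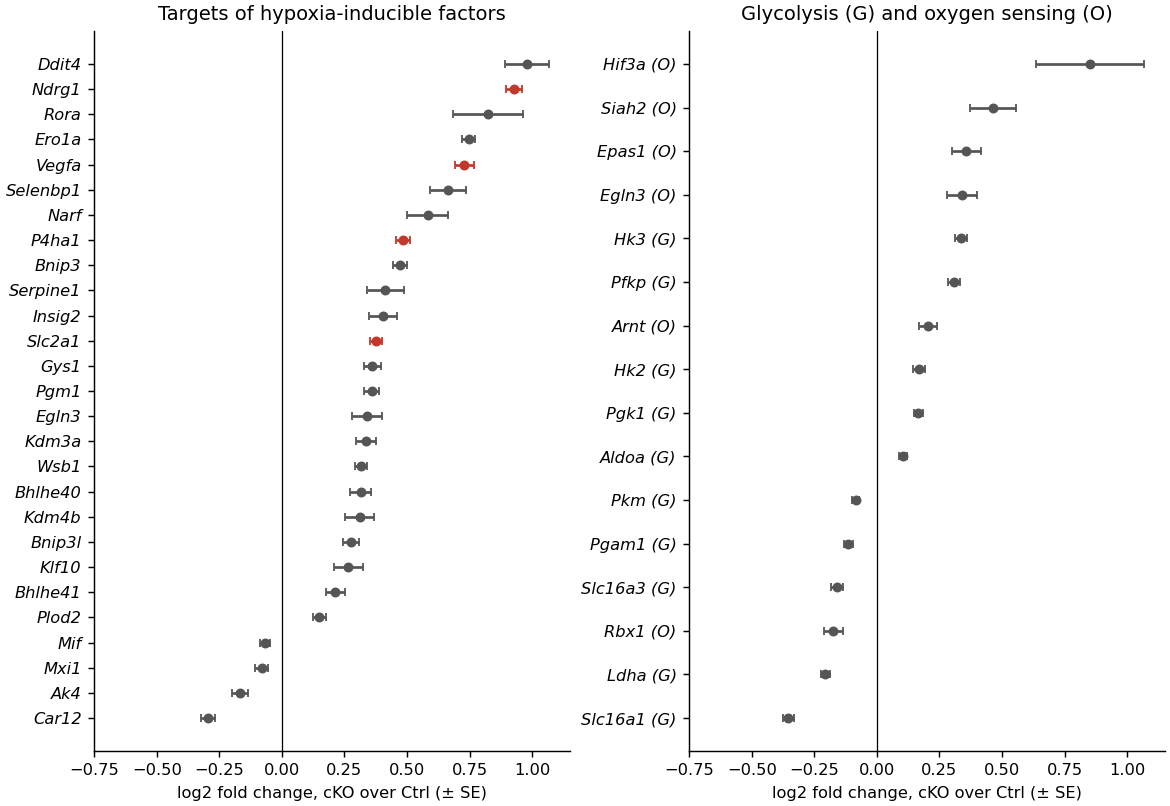
Log2 fold change of cKO over Ctrl with its SE (horizontal axes) for the 27 HIF targets with a row (left; Vegfa, Ndrg1, Slc2a1 and P4ha1 in red) and for the 10 glycolysis (G) and 6 oxygen-sensing (O) genes with a row (right). On the left 23 of 27 points lie above 0, between Plod2 at 0.15 and Ddit4 at 0.98; on the right the glycolysis genes lie on both sides of 0, from Slc16a1 at -0.35 to Hk3 at 0.34.

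Genes of glycolysis, many of which HIF also induces, were called in both directions, and among tested rows in shares near those of all rows. Of 20 listed genes 10 had a row; 5 rose and 5 fell, and the median of their log2 fold changes was 0.01. Over all tested rows 46.4% were called higher and 50.2% lower. In the authors' own calls 25% of the 20 were higher and 25% lower. Both shares were above those of all genes they tested, 13.7% higher and 15.7% lower. The hexokinase Hk3 rose by 0.34 and the phosphofructokinase Pfkp by 0.31. The lactate and pyruvate carrier Slc16a1 fell by 0.35, with 100.5 TPM in cKO and 129.9 TPM in Ctrl. Lactate dehydrogenase A (Ldha) was at 2176, 2224 and 2189 TPM in cKO libraries, against 2542, 2554 and 2575 TPM in Ctrl libraries, and fell by 0.21. The groups of Ldha did not overlap, and its libraries were closer together within each group than the groups were to each other. Pgk1 rose by 0.17, the hexokinase Hk2 by 0.17 and Aldoa by 0.10, whereas Slc16a3 (-0.16), Pgam1 (-0.11) and the pyruvate kinase gene Pkm (-0.09) fell. All of these were named after their values were seen. The call of Pkm ended in the edgeR fit with upper-quartile scaling (adjusted p = 0.0998).

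Few genes of the oxygen-sensing machinery had a row. Of 19 listed genes there were 6, of which 5 rose and 1 fell, with a median of 0.35. In the authors' own calls 26.3% of the 19 were higher and 5.26% lower, beside 13.7% higher and 15.7% lower of all genes they tested. Epas1, the alpha subunit HIF-2 alpha, was at 8.94, 9.35 and 9.82 TPM in cKO libraries, against 7.50, 7.22 and 7.47 TPM in Ctrl libraries, and rose by 0.36 ± 0.06 (SE). The oxygen-sensing hydroxylase Egln3, itself induced by HIF, rose by 0.34 ± 0.06, and Arnt rose by 0.20 ± 0.04. Siah2, a ubiquitin ligase that acts on the hydroxylases, rose by 0.46. Rbx1, a subunit of the Vhl ubiquitin ligase, fell by 0.17 and was named after its value was seen, as was Hif3a. Hif3a had 0.660 TPM in cKO and 0.367 TPM in Ctrl, and its call ended on the log2(FPKM + 1) scale (adjusted p = 0.0531). Hif1a, Egln1, Egln2, Vhl and Hif1an had no row. HIF alpha subunits are set mainly by degradation of the protein, which these data do not measure.

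Around Vegfa, the related ligand and the co-receptors with a row went both ways. Of the other 9 genes of the VEGF family and its receptors, 3 had a row. In the authors' own calls 11.1% of the 9 were higher and 22.2% lower, beside 13.7% higher and 15.7% lower of all genes they tested. The co-receptor Nrp1 was at 34.6, 33.8 and 33.5 TPM in cKO libraries, against 26.3, 26.0 and 27.0 TPM in Ctrl libraries, and rose by 0.39 ± 0.03 (SE). Its relative Nrp2 fell by 0.21 and the ligand Vegfb by 0.18. The call of Vegfb ended with upper-quartile scaling (adjusted p = 0.0537) and with DESeq2 (adjusted p = 0.166). The receptors Flt1 and Kdr had no row.

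Around Slc2a1, 4 of the 11 other listed genes of glucose transport had a row, and those 4 rose. That is 36.4% of the 11 in the authors' own calls, beside 13.7% higher of all genes they tested; a row exists only for a gene they called. Txnip, an arrestin-like protein that removes GLUT1 from the cell surface, was at 235, 236 and 233 TPM in cKO libraries, against 168, 170 and 171 TPM in Ctrl libraries, and rose by 0.48 ± 0.02 (SE). Its relative Arrdc4 rose by 0.64 ± 0.05. The TPM ratio of Arrdc4 was 1.27, smaller than its 1.56-fold difference in reads. The urate and hexose carrier Slc2a9 rose by 0.72 and the intracellular glucose carrier Slc2a8 by 0.55, from levels under 8 TPM in both groups. Slc2a3 and Slc2a5, further hexose carriers, had no row.

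Around Ndrg1, the paralog Ndrg3 fell by 0.13 ± 0.04 (SE), with 44.3 TPM in cKO and 49.2 TPM in Ctrl, a call that ended with upper-quartile scaling (adjusted p = 0.0975) and with DESeq2 (adjusted p = 0.224). Sgk1, a kinase that phosphorylates the Ndrg1 protein, rose by 0.29 ± 0.06. Ndrg2, Ndrg4 and Sgk3 had no row.

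Around P4ha1, 5 of the 16 other listed genes of collagen hydroxylation and folding had a row, and those 5 rose. In the authors' own calls that is 31.2% of the 16, beside 13.7% higher of all genes they tested. P4hb, protein disulfide isomerase and the beta subunit of the same enzyme, was at 474, 470 and 472 TPM in cKO libraries, against 341, 341 and 343 TPM in Ctrl libraries. Its log2 fold change was 0.48 ± 0.02 (SE), beside the 0.49 of P4ha1. The proline isomerase Ppib rose by 0.34, the collagen-binding Crtap by 0.26 and the lysyl hydroxylase Plod2 by 0.15, and Ero1a, described above, is on this list as well. P4ha2, P4ha3, Plod1 and Plod3 had no row. P4hb and Ero1a are also general folding enzymes of the endoplasmic reticulum.

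Of the 4 genes, Vegfa is also on the list of Atf4 targets, and Ndrg1, Slc2a1 and P4ha1 are not. Of 41 listed genes 36 had a row; 35 rose and 1 fell, the median of their log2 fold changes was 0.65, and the exception was the tRNA synthetase Mars1 (-0.14), named after its value was seen. In the authors' own calls 85.4% of the 41 were higher and 2.44% lower, beside 13.7% and 15.7% of all genes they tested. Those with the smallest p were the pseudokinase Trib3 (2.60 ± 0.05, SE), the mitochondrial enzyme Pck2 (1.48 ± 0.03), Atf4 itself (0.85 ± 0.02) and the asparagine synthetase Asns (0.87 ± 0.02). The HIF and Atf4 lists share 3 genes, Vegfa, Ddit4 and Stc2 (the last without a row), of the 50 on the HIF list and the 41 on the Atf4 list.

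**Figure D3:**
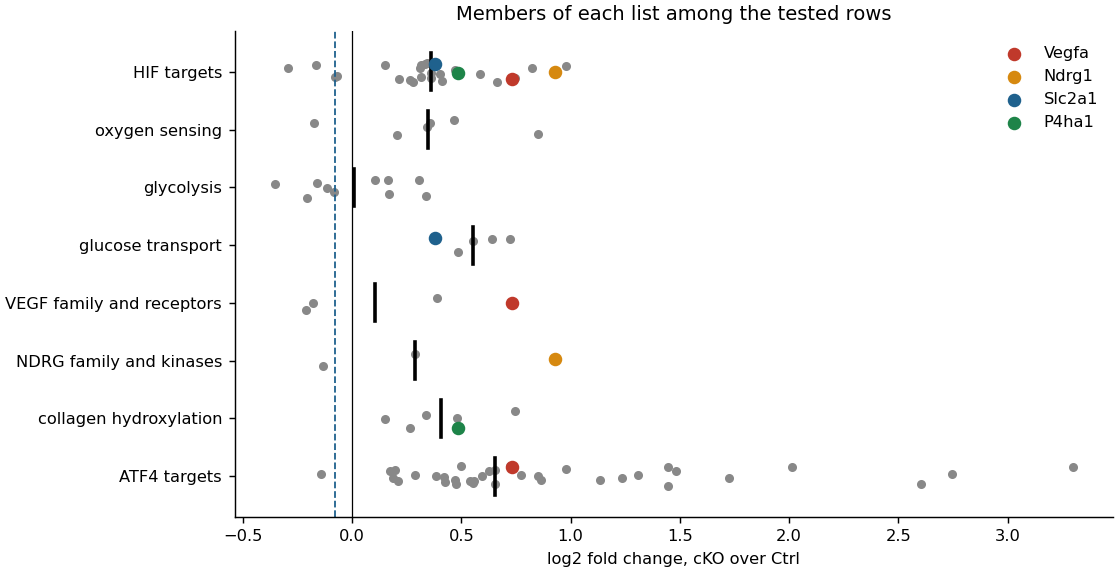
Log2 fold change of cKO over Ctrl (horizontal axis) for every gene of each list that was among the tested rows (grey points; the 4 genes in colour), with the median of each list as a black bar and the median of all tested rows, -0.08, as a dashed line. HIF targets are centred at 0.36, glycolysis genes at 0.01 and Atf4 targets at 0.65.

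Libraries within a group differed in a way that was not the same for HIF and Atf4 targets. This was noticed in the values and is given without a test. Of the 23 HIF targets that rose, 15 (65.2%) had their highest TPM among cKO libraries in replicate 1, against 35.2% of all 2155 genes called higher. Of the 35 Atf4 targets that rose, 22 (62.9%) had theirs in cKO replicate 2, against 41.7% of all genes called higher. In TMM-scaled CPM (read counts scaled for library size) the shares were 69.6% for HIF targets in replicate 1, against 40.05% of all, and 21 of 35 for Atf4 targets in replicate 2, against 32.2% of all. Among the 4 genes, Ndrg1 and Slc2a1 were highest in cKO replicate 1, P4ha1 in replicate 2 and Vegfa in replicate 3. Without cKO replicate 1 the log2 fold change of Ndrg1 was 0.89 and that of Slc2a1 0.36, and 23 HIF targets were called higher. That count was largely set in advance, because each row was deposited for being called with this library included.

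Genes with a profile over the 6 libraries most like each of the 4 were ranked among 4422 genes by Euclidean distance between log2 CPM values, each gene centred on its own mean. All rows were selected for a difference between the same groups, so a short distance mainly says that the size of that difference is alike. Nearest to Vegfa were the proline synthesis enzyme Aldh18a1 (distance 0.0441), the disulfide isomerase Pdia3 (0.0751) and the autophagy receptor Sqstm1 (0.0827). Nearest to Ndrg1 were the neutral amino acid carrier Slc1a4 (0.0714), the splicing regulator Ptbp2 (0.0765) and Greb1 (0.0919). Nearest to Slc2a1 were vimentin (Vim, 0.0339), the nuclear envelope protein Syne1 (0.0360) and Ano10 (0.0377). Nearest to P4ha1 were the cell-cycle inhibitor Cdkn1a (0.0348), the calcium-binding Nucb1 (0.0376) and Txnip (0.0470). The nearest of the 4 genes to each other were Slc2a1 and P4ha1, at 0.151.

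Several of the 4 genes are also abundant in other brain cells, Slc2a1 in endothelium, Ndrg1 in oligodendrocytes and Vegfa in astrocytes. In bulk RNA, fewer cells of a type and less RNA per cell cannot be told apart. Of 14 endothelial markers 2 had a row, Pecam1 and Egfl7, with a summed level of 20.03 to 21.4 TPM in cKO libraries and 23.6 to 26.7 TPM in Ctrl libraries. Egfl7 makes up most of that sum, with 19.9 TPM in cKO and 25.2 TPM in Ctrl; Pecam1 went the other way, with 0.677 TPM in cKO and 0.260 TPM in Ctrl, and was called higher. Of 13 oligodendrocyte markers only Cnp had a row, at 25.9 to 28.0 TPM in cKO and 22.2 to 23.2 TPM in Ctrl. Of 10 astrocyte markers only Aldh1l1 had one, at 0 to 0.160 TPM in cKO and 0.340 to 0.420 TPM in Ctrl, and of 8 neuron markers only Syn1, at 14.3 to 15.4 TPM in cKO and 10.8 to 11.5 TPM in Ctrl. Of 11 markers of border macrophages and monocytes 4 had a row (Mrc1, Ms4a7, Ly6c2 and S100a4), with a sum of 2236 to 2488 TPM in cKO and 2811 to 2952 TPM in Ctrl. S100a4 makes up most of it, with 2349 TPM in cKO and 2833 TPM in Ctrl. Mrc1 averaged 4.55 TPM in cKO and 10.2 TPM in Ctrl, and Ms4a7 20.7 TPM in cKO and 39.2 TPM in Ctrl. Ly6c2 was at 0.550 to 0.710 TPM in cKO and listed at 0 in all 3 Ctrl libraries. Markers without a row are unknown here. That none with a row was at 0 in all 6 libraries was set in advance, since such a gene cannot be called. The part of such cells in the values of the 4 genes was not tested.

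**Figure D4:**
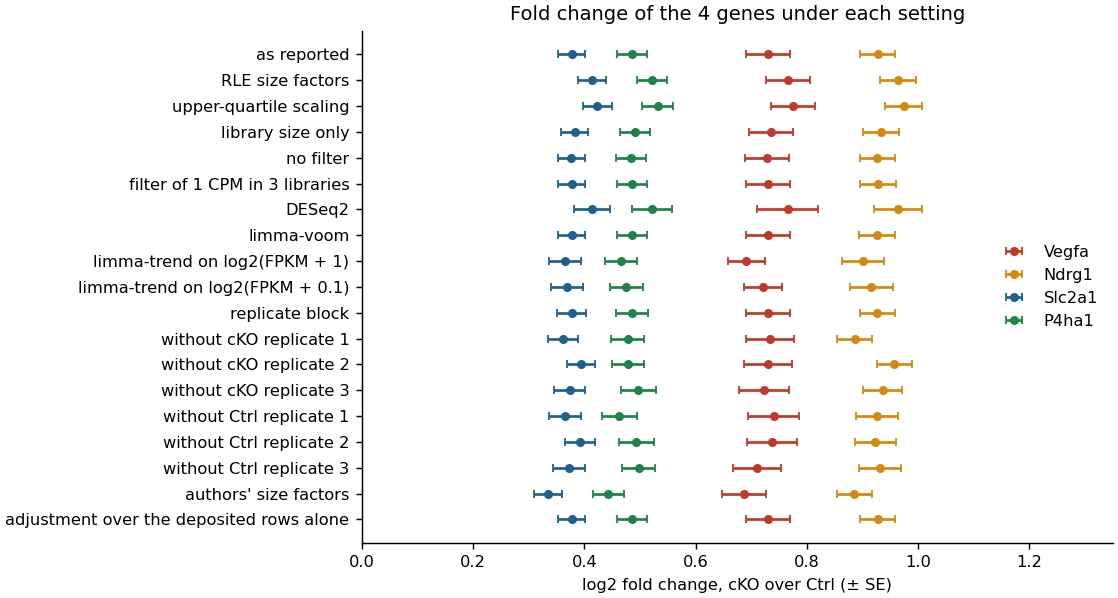
Log2 fold change of cKO over Ctrl with its SE (horizontal axis) for the 4 genes under the reported setting and 18 alternatives (rows). Each gene stays above 0 in every row, with Ndrg1 from 0.89 to 0.97, Vegfa from 0.69 to 0.78, P4ha1 from 0.44 to 0.53 and Slc2a1 from 0.34 to 0.42.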

How the data were processed

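RNA was measured in 6 libraries, 3 cKO and 3 Ctrl; titles gave the groups. The submitters' processing notes name mm39, DESeq2 1.34.0 and Bowtie2 2.4.5, and no source used here names the counting tool. Per the file headers, the authors deposited, for each gene and library, TPM, FPKM, an expected (estimated) count and a normalized count; in the deposited rows each gene also has a q-value, a p-value and the authors' log2 fold change. The deposited normalized counts are a signal scaled by 1 factor per library (0.987 to 1.02). The authors' q-values fit a Benjamini-Hochberg adjustment over 15835 genes, of which the 4656 called ones were deposited. In the deposited rows, 11.1% of expected counts were not whole (tolerance 1e-06).

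Expected counts were rounded and fitted over all rows with edgeR 4.0.16 (R 4.3.3; TMM, filterByExpr, quasi-likelihood F-test), which left 4641 rows; p-values were adjusted over 15835 genes, those without a row taken as larger. TMM factors and dispersions thus rest on called genes. The count test had been planned before it was settled that the table holds called genes only. Log2 CPM used a prior count of 2. DESeq2 1.42.0 and limma 3.58.1 were alternatives. The edgeR script was tested on simulated data in which most genes did not differ, so that test did not cover a table of called genes only. The other steps used Python 3.11.15, pandas 2.3.3, NumPy 2.4.6 and matplotlib 3.10.9. TPM is given per library or as mean ± SD. The authors' 8 columns of averages were not used.

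The 4 genes and all lists were chosen with earlier results of these data known. Genes were named by rule: the 4 genes and Nus1, up to 4 called genes of each list by smallest p, relatives of the 4 genes with a row, and the 3 nearest profiles among genes with at least 5 CPM. Cell type markers with a row, and Crtap, were named besides. Others are said to be named after their values were seen. Members of a list were matched by exact symbol.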

Additional observations from a re-analysis of the deposited data

How the results depend on the processing

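Over 18 alternatives the log2 fold changes of Vegfa, Ndrg1, Slc2a1 and P4ha1 kept their direction. Of 252 values compared, 235 moved by less than the spread between replicates or, for counts, by less than 1.5 times. The other 17 moved further and 0 reversed. Most of these values are counts of calls among rows deposited for being called, so their stability was largely set in advance. Adjustment over the deposited rows alone cannot change a fold change. Vegfa, Slc2a1 and P4ha1 moved by more than their replicate spread with RLE, upper-quartile scaling, DESeq2 and the authors' size factors. Vegfa also did so on the log2(FPKM + 1) scale. The scaling moved the 4 genes together with all rows, whose median shifted by 0.04 with RLE, 0.05 under upper-quartile scaling and -0.04 when the authors' size factors were used. Vegfa was at 0.77 with RLE, 0.78 with upper-quartile scaling, 0.77 with DESeq2, 0.69 on the log2(FPKM + 1) scale and 0.69 with the authors' size factors. Slc2a1 was at 0.41 (RLE), 0.42 (upper quartile), 0.41 with DESeq2 and 0.34 with the authors' size factors, and P4ha1 at 0.52, 0.53, 0.52 and 0.44 under the same 4. HIF targets called lower numbered 2 under RLE, upper-quartile scaling and DESeq2 alike, and DESeq2 called 1510 of all rows lower, against 2332. Leaving out 1 library gave 0.89 to 0.96 for Ndrg1, 0.71 to 0.74 for Vegfa, 0.46 to 0.50 for P4ha1 and 0.36 to 0.39 for Slc2a1. The authors' size factors and adjustment over the deposited rows alone were chosen after seeing the data.

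Deviations of replicates of the same number had correlations of 0.06, -0.01 and -0.06 across genes, beside -0.07 to 0.09 for replicates of other numbers. With 3 libraries per group, these values cannot show whether the numbers pair the libraries. With the replicate number as a block, 2155 rows were called higher and 2296 lower, 23 HIF targets rose and 4 fell, and the log2 fold change of Ndrg1 was 0.93, of Vegfa 0.73, of P4ha1 0.49 and of Slc2a1 0.38. Depth behind the 4 genes was 774 to 4442 reads per library.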
